A study of Mus musculus with 12 samples.

Results

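Camp, Lcn2, Saa1, Saa2, Saa3, Hp, Orm1, Slpi and C3 encode cathelicidin, acute phase proteins and other proteins of innate defence, and their mRNA was followed in cultured mouse adipocytes that carry a knock-in of the nuclear receptor PPARγ. These 9 genes were taken by symbol from a count table of 55573 genes, and all 9 were among the 15117 that passed the filter on low counts. The set was chosen by the measured difference of Camp between TA and WT, 1 of the larger ones in the data, so for all members the values of TA against WT, and those of Camp in TD against TA, are given as a description without a test.

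The cells came from the stromal vascular fraction (SVF), which holds the precursors of fat cells, of subcutaneous fat of C57BL/6 mice, and were turned into adipocytes in culture. TA carried alanine (T166A) and TD carried aspartate (T166D), which mimics the phosphorylated residue. Each replaced a threonine of the DNA-binding domain of PPARγ on both alleles. WT littermates from crosses of heterozygotes served as controls. TA and TD were separate strains, and the strain whose litters gave the WT libraries was not given. A difference between strains therefore cannot be told apart from that of the substitution. Every cell of TA and TD mice carried the substitution, since the knock-in was global, and the WT had no edited allele. All 3 genotypes received the same culture, with 4 days of induction by 850 nM insulin, 1 nM triiodothyronine, 0.5 mM IBMX, 125 nM indomethacin and dexamethasone, given at 5 mM in the labels but in micromolar units in the published methods, and were harvested on day 8. Each genotype had 4 libraries, of 16553324 to 20324286 counts each. The age and sex of the donors of these cultures, and whether each library stood for 1 animal, were not given in the sources used here, so p-values measure the spread between these libraries, which may be technical. A substitution of 1 residue cannot be read from counts per gene, and the level of Pparg therefore did not check the genotype labels.

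The acute phase response is the shift in secreted proteins that follows infection or injury. Interleukin-6, interleukin-1 and tumour necrosis factor act on hepatocytes through STAT3, NF-κB and C/EBP factors, and fat tissue makes many of the same proteins, with serum amyloid A3 and haptoglobin well known as products of adipocytes. Cathelicidin, the precursor of an antimicrobial peptide, is stored in the granules of neutrophils and is also made by precursors of adipocytes during skin infection. Complement is a cascade of serum proteases that meets at C3, whose cleavage marks surfaces for uptake and starts the membrane attack complex.

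The start regions of Camp, which differed mainly in TA, and of Saa1, Saa2, Saa3 and C3, which had higher levels in both mutants, are shown first. Each is the stretch from 250 bases before to 50 bases after the start site in RefSeq on GRCm38.p6, written 5′ to 3′ on the strand of the gene. Capitals mark matches on either strand to the C/EBP core TTNNGNAA in the Saa genes and C3, and to the NF-κB consensus in Camp.
Camp, chr9:109849407-109849706, minus strand: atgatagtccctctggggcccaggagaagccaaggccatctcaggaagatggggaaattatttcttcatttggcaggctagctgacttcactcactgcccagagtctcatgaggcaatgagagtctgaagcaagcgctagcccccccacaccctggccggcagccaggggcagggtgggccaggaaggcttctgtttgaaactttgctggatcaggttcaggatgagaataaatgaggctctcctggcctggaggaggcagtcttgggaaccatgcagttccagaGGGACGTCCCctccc
Saa1, chr7:46742931-46743230, minus strand: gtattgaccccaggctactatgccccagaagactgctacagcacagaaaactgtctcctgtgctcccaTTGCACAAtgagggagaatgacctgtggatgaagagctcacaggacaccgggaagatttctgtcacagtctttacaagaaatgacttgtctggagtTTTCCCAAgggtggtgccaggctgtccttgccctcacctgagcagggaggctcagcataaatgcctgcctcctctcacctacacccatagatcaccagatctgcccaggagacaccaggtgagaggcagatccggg
Saa2, chr7:46751583-46751882, plus strand: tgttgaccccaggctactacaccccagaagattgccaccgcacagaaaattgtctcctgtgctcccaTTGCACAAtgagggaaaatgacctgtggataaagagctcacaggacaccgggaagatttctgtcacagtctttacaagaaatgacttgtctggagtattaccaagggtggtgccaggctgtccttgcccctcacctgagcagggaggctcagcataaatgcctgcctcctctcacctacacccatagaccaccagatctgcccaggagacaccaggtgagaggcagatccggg
Saa3, chr7:46715627-46715926, minus strand: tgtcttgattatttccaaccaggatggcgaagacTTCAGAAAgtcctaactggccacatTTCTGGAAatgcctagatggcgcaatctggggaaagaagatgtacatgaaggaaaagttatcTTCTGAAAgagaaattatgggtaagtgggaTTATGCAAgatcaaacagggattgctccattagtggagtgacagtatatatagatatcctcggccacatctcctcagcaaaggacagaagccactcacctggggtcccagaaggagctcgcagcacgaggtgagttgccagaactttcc
C3, chr17:57228087-57228386, minus strand: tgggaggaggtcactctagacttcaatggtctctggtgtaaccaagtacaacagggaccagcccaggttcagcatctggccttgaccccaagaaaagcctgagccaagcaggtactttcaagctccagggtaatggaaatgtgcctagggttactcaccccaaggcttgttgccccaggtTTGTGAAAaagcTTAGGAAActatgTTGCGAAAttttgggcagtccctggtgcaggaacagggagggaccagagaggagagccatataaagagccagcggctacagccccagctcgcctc

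These tables held a start region for 7 of the 9 genes, the exceptions being Hp and Orm1. The C/EBP core was found at 4 places in the Saa3 region, at 3 in that of C3, at 2 in that of Saa1 and at 1 in that of Saa2. The regions of Slpi and Lcn2, which are not printed above, held 3 and 1, whereas the region of Camp held none. Of the 32851 start regions of the same length, 40.7% held at least 1 match to this core, so its presence is common. The single NF-κB match of Camp lay 35 bases after the start site, and 8.46% of all regions held such a match. The interferon-stimulated response element was matched once in Saa3, overlapping a C/EBP match, and in 3.44% of all regions. Neither the STAT consensus TTCNNNGAA, held by 8.3% of regions, nor a direct repeat of the PPAR type, held by 0.381%, was matched in any of the 7 regions. The regions of Saa1 and Saa2 were identical at 287 of 301 aligned columns (95.3%), while Saa1 and Saa3 shared 50.9% of theirs. A match describes letters in a window and is no measured binding site.

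Cell-type markers in the libraries set the frame for these genes. Adipoq, the adipocyte hormone adiponectin, ran from 558 to 865 CPM (counts scaled to a common normalized library size) over the 12 libraries, so the labelled adipocytes had their defining marker. The summed level of 12 adipocyte markers was 21981 to 24622 CPM in WT, 20510 to 26076 in TA and 15247 to 17470 in TD. Against it, 12 progenitor markers summed to 10188 to 13554 CPM in WT, 11439 to 20474 in TA and 17638 to 25833 in TD. This progenitor sum came mainly from collagen genes, with up to 283907 counts in a library for Col3a1 and 98481 for Col1a1. Pi16 had at most 278 counts and Dpp4 at most 72. Single genes were tested by edgeR's quasi-likelihood test and called at an adjusted p under 0.05 over all genes. In TD against WT, 10 of 12 adipocyte markers were lower, beside 14.2% of all genes, and 8 of 11 tested progenitor markers higher, beside 15.1%. In TA against WT, 6 progenitor markers were higher, beside 6.72%, and 1 adipocyte marker rose and 1 fell. In TD against TA, 9 adipocyte markers were lower, beside 9.37%, and 1 higher, and 4 progenitor markers were higher, beside 7.33%. TA replicate 2 had the lowest progenitor sum of its genotype and TA replicate 3 the highest, and both recur among the extremes of the members below. Skeletal muscle markers summed to 2.33 to 9.91 CPM in WT, 16.6 to 77.6 in TA and 16.6 to 283 in TD, the last value from TD replicate 3. RNA of a whole culture cannot tell fewer cells of a type from less RNA per cell, and the part of these shifts in the results below was not tested.

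**Figure D1:**
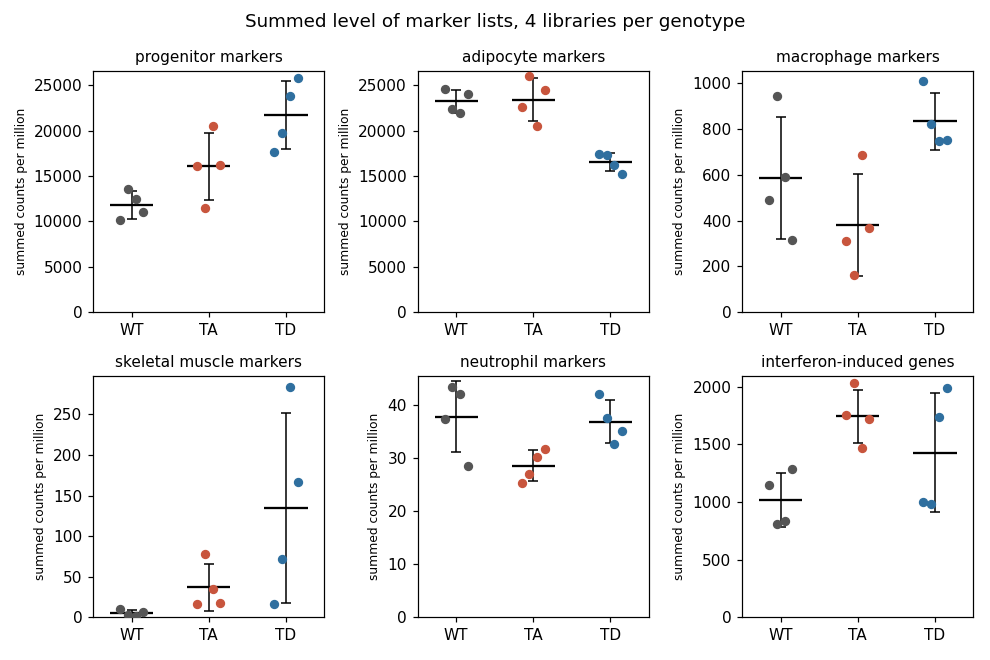
Summed CPM of 6 marker lists (vertical axis, from 0) in each library of WT, TA and TD (points), with the mean (bar) and SD (whiskers) of 4 libraries. The 4 TD libraries lie below all WT libraries in the adipocyte sum and above them in the progenitor sum, and 1 TD library has a muscle sum of 283 CPM.

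Between genes, levels were compared per kilobase of exon. In WT, Hp, the plasma protein that binds free haemoglobin, was the most abundant at 8393 ± 972 CPM per kilobase (SD, n = 4), followed by C3 at 1086 ± 38.6. Lcn2, a protein that binds bacterial siderophores and so withholds iron, stood at 736 CPM per kilobase and Saa3 at 603, and the libraries of this pair overlapped. The place of Saa3 depends on the length used, which was 2606 bases of exon, against 609 for Saa1 and 652 for Saa2. By CPM alone, Saa3 was above Lcn2 in WT, at 1572 ± 182 against 909 ± 111. Orm1, the plasma carrier α1-acid glycoprotein, followed at 81.1 CPM per kilobase. Saa1, at 3.31, and Saa2, at 2.81, the serum amyloids carried by high density lipoprotein, overlapped each other, as did Saa2 with Camp at 1.05 and Camp with Slpi at 0.875, the inhibitor of neutrophil elastase. Hp and C3 ranked 6 and 7 among all genes by counts summed over the 12 libraries of all genotypes. The 9 genes together took 1.91% ± 0.0849 of WT counts, 2.27% ± 0.231 of TA counts and 2.30% ± 0.0531 of TD counts (SD, n = 4). On the scale per kilobase, the order changed in the mutants. In TD, Saa3 reached 1342 CPM per kilobase against 670 for Lcn2, with no overlap. In TA, Camp stood at 15.1 CPM per kilobase, above Saa2 at 8.42 and Saa1 at 7.14, although its libraries overlapped those of Saa2.

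**Figure D2:**
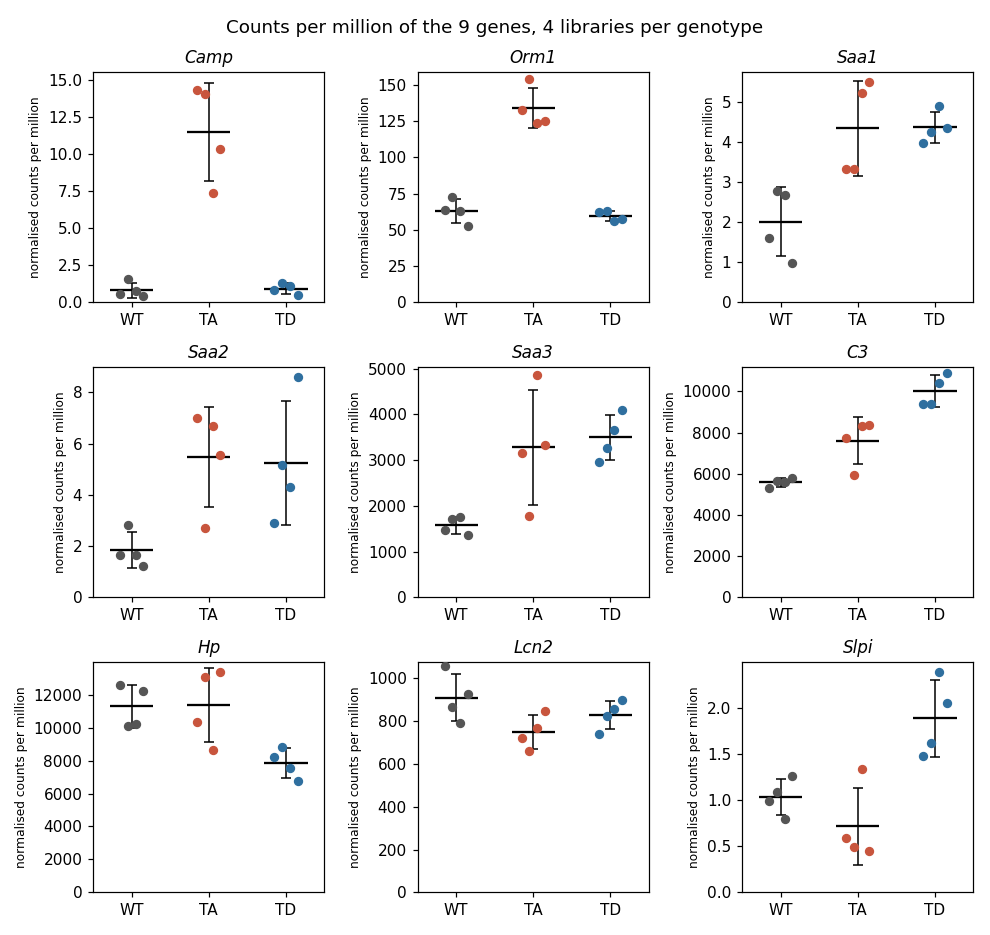
CPM of the 9 genes (vertical axis of each panel, from 0) in the 4 libraries of WT, TA and TD (points), with the mean (bar) and SD (whiskers). Camp and Orm1 are high in TA only, the Saa genes are high in TA and TD, C3 stands higher in TA and highest in TD, and Hp is lowest in TD.

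Camp, on chromosome 9 (109847379 to 109849617, minus strand, GRCm38), was nearly silent outside TA. It had 10, 31, 15 and 7 counts in the 4 WT libraries and 14, 24, 20 and 8 in TD, against 244, 227, 132 and 185 in TA. On the CPM scale these were 0.519, 1.54, 0.743 and 0.384 in WT and 14.3, 14, 7.35 and 10.3 in TA. In TD the 4 values were 0.795, 1.29, 1.06 and 0.469. Every TA library was above every WT and TD library, and the WT and TD ranges overlapped along most of their length. The level in TA was 14.1 times that in WT, a log2 fold change of 3.82 ± 0.35 (SE), and it was 4.36 without WT replicate 2, the highest of the WT libraries. TD lay 12.5-fold below TA (log2 fold change −3.64 ± 0.35). In TD against WT, which the choice of the gene did not use, Camp differed by 0.18 ± 0.42 on the log2 scale with an edgeR adjusted p of 0.785, so no difference was detectable with 7 to 31 counts per library.

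Neutrophil genes were read beside Camp, because granules of these cells hold the peptide. Of 17 neutrophil markers 5 passed the filter on low counts. Ly6g and Retnlg had no count in any library, S100a9, Ngp and Ctsg had at most 1 count in a library, Ltf at most 3, and Elane and Mpo at most 15. The markers Ly6g, Retnlg, S100a9, Ngp, Ctsg and Ltf were thus at or near 0 in all genotypes. Others of the list were not, with up to 490 counts in a library for Mmp8, 354 for Prtn3, 92 for S100a8 and 92 for Fcnb. Whether neutrophils added to the level of Camp was not tested. The summed level of the list was 28.4 to 43.2 CPM in WT, 25.3 to 31.6 in TA and 32.5 to 42 in TD. It came mostly from Mmp8, a collagenase, and Prtn3, a granule protease, neither of which was called in TA against WT. S100a8, a calcium-binding protein that is also in the list of relatives below, had 1.97 ± 0.672 CPM in WT and 4.96 ± 0.617 in TA (SD, n = 4), and rose by a log2 fold change of 1.32 ± 0.23 (edgeR adjusted p = 0.0013). Fcnb, a ficolin that can start the lectin pathway, rose by 1.62 ± 0.32 (edgeR adjusted p = 0.00378), to 2.45 to 5.35 CPM in TA. Epithelial, hepatocyte and mesothelial markers were low in sum, in the range of Camp itself, whereas macrophage markers summed to 162 to 1011 CPM over the libraries. Epithelial markers summed to 1.34 to 2.41 CPM in WT, 3.32 to 4.56 in TA and 2.04 to 4.22 in TD, and hepatocyte markers to 3.27 to 3.87, 5.17 to 11.1 and 3.41 to 7.98 CPM. Both sums were thus higher in every TA library than in every WT library. Only 1 of 10 epithelial and 3 of 12 hepatocyte markers passed the filter on low counts. Mesothelial markers summed to 2.39 to 4.17 CPM in WT, 1.46 to 5.68 in TA and 3.63 to 8.91 in TD. The part of these sums in the levels of Camp, Saa1 and Saa2 was not tested.

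The genes with a profile most like that of Camp over the 12 libraries were found by the root mean square difference of centred log2 CPM, among 13523 genes of at least 1 CPM. They were AA914427 at 0.601, Ubd at 0.626, Otop1 at 0.828, Ttc25 at 0.839 and Sptlc3 at 0.854 log2 units. AA914427 had 1.76 to 2.33 CPM in WT, 17.3 to 35.8 in TA and 2.04 to 3.19 in TD. Ubd, a ubiquitin-like modifier, had 0.739 ± 0.272 CPM in WT, 9.58 ± 1.32 in TA and 1.74 ± 0.365 in TD (SD, n = 4). Sptlc3, a subunit of serine palmitoyltransferase, had 2.98 to 4.27 CPM in WT and 21.8 to 34 in TA, but only 1.22 to 1.82 in TD. Ttc25 had 0.934 to 1.49 CPM in WT, 5.28 to 10.2 in TA and 1.11 to 1.93 in TD. Otop1, a proton channel known from brown and beige fat, was at 0 in 3 of the 4 WT libraries and at 2.5 to 3.63 CPM in TA. Otop1 also stood above WT in TD, although the main fit did not call it there. Its log2 fold change in TD against WT was 3.27 ± 1.18 (SE) by DESeq2 and 3.01 ± 0.999 without a filter on low counts. Its place depended on the prior count, since it ranked 161 with a prior of 0.5 in place of 2. As these genes were picked for their likeness, their values are a description, and all of them were highest in TA. Among the other members Orm1 came nearest to Camp, at 1.28 log2 units with 32 genes closer.

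Genes next to Camp on the chromosome differed less. Of the 8 annotated genes within 100 kb of Camp, 4 were tested. Cdc25a, a cell-cycle phosphatase, had 9.25 ± 0.669 CPM in WT and 12.7 ± 1.76 in TA (SD, n = 4), a log2 fold change of 0.45 (edgeR adjusted p = 0.0187, and 0.0574 without WT replicate 3). Nme6 differed by 0.54 (edgeR adjusted p = 0.183), 3000002C10Rik by 0.82 (edgeR adjusted p = 0.259) and Map4 by 0.19 (edgeR adjusted p = 0.0917), far below the 3.82 of Camp. Spink8 was at or below 0.0994 CPM on average in each genotype, and Fbxw27, Mir7089 and Gm4644 had no counts.

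Orm1, on chromosome 4 (63344560 to 63348163, plus strand), followed Camp in direction with a smaller difference and far more counts. Its 4 libraries had 63.4, 72.6, 63 and 52.3 CPM in WT, 133, 154, 124 and 125 in TA, and 62.3, 62.8, 56 and 57.4 in TD. The lowest TA library was above the highest of WT and TD. The level of TA was 2.13 times that of WT (log2 fold change 1.09 ± 0.096). TD was 2.25-fold below TA (log2 fold change −1.17 ± 0.096, edgeR adjusted p = 1.28e-06), a comparison that shares its TA libraries with the choice of the set. TD and WT differed by −0.08 ± 0.096 on the log2 scale (edgeR adjusted p = 0.597), with overlapping libraries.

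The 2 paralogues beside Orm1, Orm2 and Orm3, had the same order of genotypes. Orm3 had 13.9 ± 4.24 CPM in WT, 35 ± 6.15 in TA and 11.6 ± 0.986 in TD (SD, n = 4). It rose in TA against WT by a log2 fold change of 1.33 ± 0.17 (edgeR adjusted p = 0.000101) and lay lower in TD than in TA by −1.59 ± 0.18 (edgeR adjusted p = 2.6e-05). Orm2 had 7.75 ± 1.15, 12.5 ± 2.67 and 6.11 ± 0.353 CPM in the same order, with 0.69 ± 0.16 in TA against WT (edgeR adjusted p = 0.00928). The 3 genes share sequence. Of the 50-base windows of Orm1 transcripts, 20.4% also occur in Orm2 or Orm3, and 6.95% of 100-base windows occur in Orm2, so reads from these genes may have been split among them. Their sum, which such splitting leaves as it is, was 84.4 ± 13.5 CPM in WT, 182 ± 21.9 in TA and 77.4 ± 3.9 in TD. Of the other neighbours within 100 kb, Col27a1, a fibrillar collagen, rose in both mutants, by 0.66 in TA (edgeR adjusted p = 0.0112) and by 0.90 in TD (edgeR adjusted p = 0.000562), unlike the Orm genes. Akna and Whrn were not called in either. Gm11212, Mir455 and Aknaos had next to no counts, with 0.0372 CPM or less on average.

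**Figure D3:**
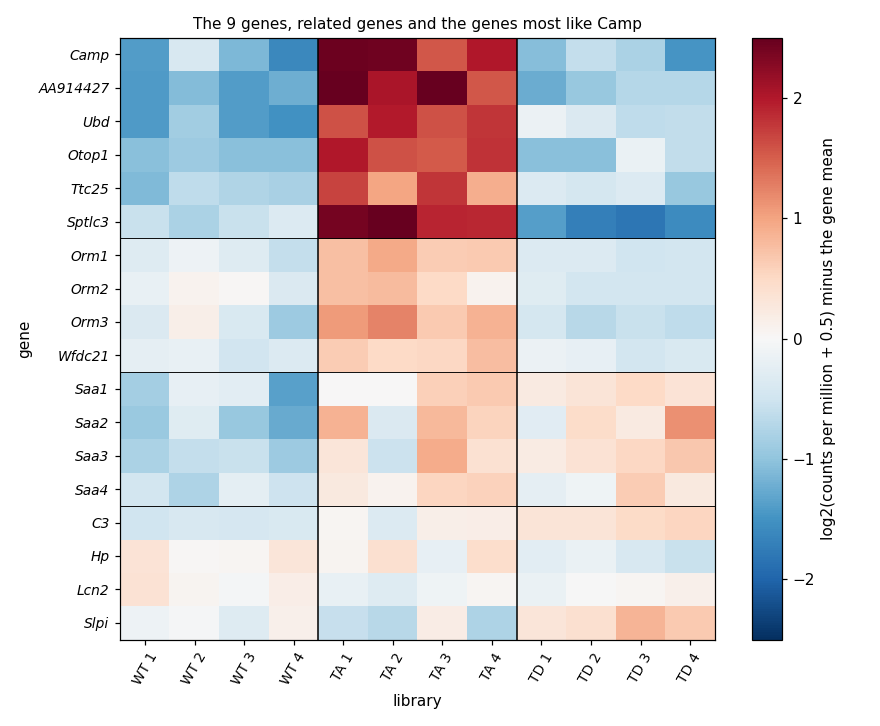
Colours give log2(CPM + 0.5) of each gene minus its mean over the 12 libraries, with libraries in columns and genes in rows. Camp, the genes most like it, the Orm genes and Wfdc21 are red in the TA columns, whereas the Saa genes are red in TD and in most TA libraries.

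Serum amyloid A genes were higher in both mutants. Saa3, on chromosome 7 (46711998 to 46715700, minus strand) and the main form made by adipocytes and macrophages, had 1478, 1703, 1744 and 1363 CPM in WT and 2961, 3273, 3667 and 4092 in TD. Without overlap of libraries, Saa3 rose 2.23-fold in TD (log2 fold change 1.15 ± 0.21, edgeR adjusted p = 0.000811). In TA the values were 3162, 1774, 4860 and 3326 CPM, the widest spread of the 3 genotypes, with replicate 2 just above the highest WT library. The level of TA was 2.09 times that of WT (log2 fold change 1.06 ± 0.21), and the log2 fold change was 0.81 without TA replicate 3. TD and TA differed by 0.09 ± 0.21 (edgeR adjusted p = 0.798).

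Saa1 and Saa2, the forms that the liver secretes, were at a few CPM. Saa1 had 1.61, 2.78, 2.68 and 0.986 CPM in WT, 3.33, 3.32, 5.23 and 5.5 in TA and 3.97, 4.26, 4.9 and 4.34 in TD. All mutant libraries were above all WT libraries. It rose 2.16-fold in TD (log2 fold change 1.11 ± 0.28, edgeR adjusted p = 0.00724), and the level of TA was 2.15 times that of WT (1.10 ± 0.28). Saa2 had 1.66, 2.83, 1.64 and 1.21 CPM in WT, 7.02, 2.71, 6.68 and 5.56 in TA and 2.9, 5.17, 4.31 and 8.62 in TD. The TA range overlapped that of WT through replicate 2, and the lowest TD library was just above the highest of WT. Saa2 rose 2.84-fold in TD (log2 fold change 1.51 ± 0.35, edgeR adjusted p = 0.00469), and the level of TA was 2.98 times that of WT (1.58 ± 0.35). Neither gene was called in TD against TA (edgeR adjusted p = 0.994 for Saa1 and 0.909 for Saa2).

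Transcripts of Saa1 share 14.8% of their 50-base windows with Saa2 or Saa3, and those of Saa2 share 11.8% with Saa1, but no 100-base window was shared. The sum of Saa1 and Saa2 was 3.85 ± 1.46 CPM in WT, 9.84 ± 2.62 in TA and 9.62 ± 2.51 in TD (SD, n = 4). Saa4, a form made at steady levels that lies between Saa3 and Saa1, had 0.295 ± 0.122, 0.944 ± 0.235 and 0.76 ± 0.347 CPM in the same order. Saa4 rose in TA against WT by a log2 fold change of 1.66 ± 0.43 (edgeR adjusted p = 0.0196) and in TD by 1.35 ± 0.44 (edgeR adjusted p = 0.0296). The call in TA was lost without WT replicate 2 (0.0572) or TA replicate 4 (0.053), and that in TD without any of WT replicates 1, 2 and 4 and TD replicates 3 and 4 (0.0613 to 0.13). Saa-ps, a pseudogene, had almost no counts. Of the unrelated neighbours within 100 kb of Saa3, Saal1 rose in TD by 0.35 (edgeR adjusted p = 0.00868), while Hps5 at 0.11 (edgeR adjusted p = 0.311), Sergef at −0.26 (edgeR adjusted p = 0.31), Gtf2h1 at −0.05 (edgeR adjusted p = 0.621) and Gm45629 at −0.19 (edgeR adjusted p = 0.697) were not called there. Tph1 and Gm45309 were too low to be tested.

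C3, on chromosome 17 (57203970 to 57228136, minus strand), stood in the order WT, TA, TD. It had 5306, 5638, 5580 and 5779 CPM in WT, 7749, 5939, 8335 and 8378 in TA and 9368, 9365, 10409 and 10904 in TD. No library of 1 genotype overlapped another genotype, although TA replicate 2 lay close to WT. C3 rose 1.80-fold in TD against WT (log2 fold change 0.84 ± 0.11, edgeR adjusted p = 0.000119). The level of TA was 1.36 times that of WT (0.45 ± 0.11). In TD against TA C3 rose by 0.40 ± 0.11 (edgeR adjusted p = 0.0208), and this call was lost without TD replicate 3 (edgeR adjusted p = 0.0633), without TD replicate 4 (0.0717) and in a fit of these 2 genotypes alone (0.0507).

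Hp, on chromosome 8 (109575128 to 109579172, minus strand), moved the other way in TD. Its libraries had 12578, 10109, 10216 and 12250 CPM in WT, 10360, 13059, 8644 and 13384 in TA and 8226, 8836, 7528 and 6749 in TD. Every TD library was below every WT library, and the highest of TD exceeded only the lowest of TA. Hp fell 1.44-fold in TD against WT (log2 fold change −0.53 ± 0.14, edgeR adjusted p = 0.00972). Against TA it fell 1.45-fold (−0.54 ± 0.14, edgeR adjusted p = 0.0154), a call lost without TA replicate 2 (0.0523), TA replicate 4 (0.0544) or TD replicate 4 (0.059). TA and WT overlapped throughout, with a log2 fold change of 0.01 ± 0.14. The adipocyte sum given above was lowest in TD too, and among the members TA replicate 3 was lowest of its genotype for Hp, as it was for that sum.

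Lcn2, on chromosome 2 (32384633 to 32388252, minus strand), showed no call. It had 1055, 866, 793 and 924 CPM in WT, 721, 662, 766 and 847 in TA and 738, 822, 855 and 896 in TD. The 3 ranges overlapped. TD differed from WT by −0.14 ± 0.10 on the log2 scale (edgeR adjusted p = 0.335) and from TA by 0.14 ± 0.10 (edgeR adjusted p = 0.346), and TA lay at −0.28 ± 0.10 against WT.

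Slpi, on chromosome 2 (164354070 to 164389095, minus strand), was at a level in WT that overlapped that of Camp. It had 0.986, 1.09, 0.793 and 1.26 CPM in WT, 0.585, 0.492, 1.34 and 0.445 in TA and 1.48, 1.62, 2.39 and 2.05 in TD. All TD libraries were above all others. Slpi rose 2.61-fold in TD against TA (log2 fold change 1.39 ± 0.35, edgeR adjusted p = 0.0134), a call lost without TD replicate 3 (0.0513). TD against WT gave 0.87 ± 0.33 (edgeR adjusted p = 0.0613), which missed the threshold, but it passed in a fit of these 2 genotypes alone (0.0252), by limma-voom (0.0413), with library totals as the scale (0.0484) and without TA replicate 3 (0.0266). In TA against WT the log2 fold change was −0.52 ± 0.36, and −1.01 without TA replicate 3, the library that stood apart.

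Counted over the set, 4 of the 9 genes rose in TD against WT (Saa1, Saa2, Saa3 and C3) and 1 fell (Hp), where 29.2% of all tested genes were called, 15.1% higher and 14.2% lower. Groups of libraries did not overlap for 5 members that were higher and for 1 that was lower, beside 32.2% of all genes (15.8% higher and 16.4% lower). The median log2 fold change of the 9 was 0.84, against 0.011 for all genes tested. In TA against WT, 6 of the 9 passed the same threshold, all higher, beside 11.1% of all genes (6.72% higher and 4.41% lower), and 5 did not overlap, beside 13.6% (7.71% higher and 5.85% lower). The choice of the set bears on these counts, and nothing is read from them. In TD against TA, Camp is left out of the count, because its TA values chose the set. Of the other 8 members, 2 rose (C3 and Slpi) and 2 fell (Orm1 and Hp), beside 16.7% of all genes (7.33% higher and 9.37% lower). Without overlap C3 and Slpi were higher and Orm1 was lower, beside 19.9% of all genes (9.32% higher and 10.6% lower). The 4 calls became 2 without TD replicate 3 or TD replicate 4. The contrasts against WT share the WT libraries, and no overlap between them is given.

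**Figure D4:**
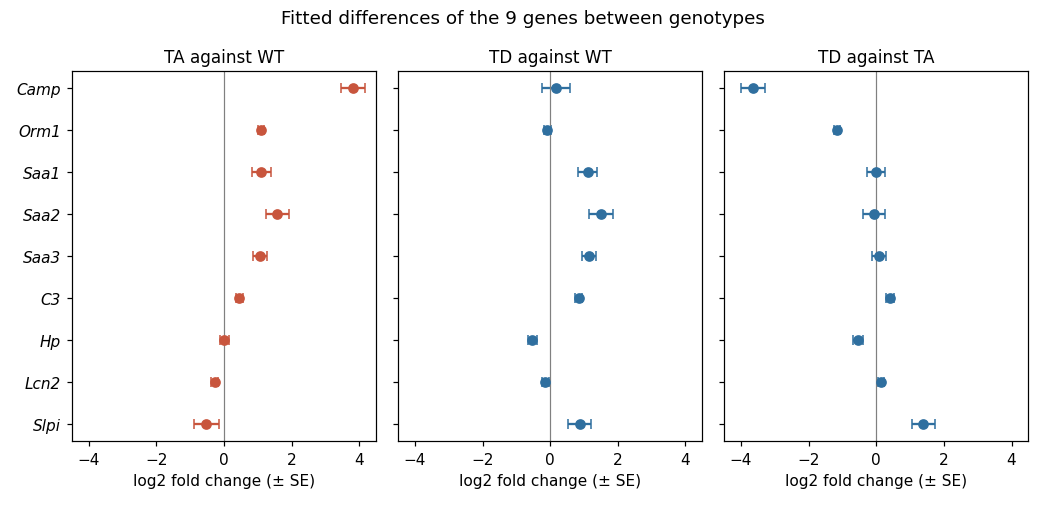
Fitted log2 fold changes (horizontal axis, points) with their SE (whiskers) for the 9 genes in TA against WT, TD against WT and TD against TA. Camp stands at 3.82 in TA against WT and at −3.64 in TD against TA but near 0 in TD against WT, where Saa1, Saa2, Saa3 and C3 lie above 0 and Hp below.

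Relatives of the members were read from a list of 45 further acute phase and antimicrobial genes, of which 25 were tested. In TA against WT 13 rose and 1 fell, with a median log2 fold change of 0.50, and in TD against WT 12 rose and 3 fell, with a median of 0.38. The shares called were 56% and 60%, beside 11.1% and 29.2% of all genes. In TD against TA 4 were higher and 8 lower, a share of 48% beside 16.7% of all genes (7.33% higher and 9.37% lower). Of these relatives 2 were higher without TA replicate 2 and 5 lower without TA replicate 4. Hpx, haemopexin, which binds free haem, had 14.1 ± 2.56 CPM in WT, 41.6 ± 9.83 in TA and 22.1 ± 4.59 in TD (SD, n = 4). It rose by 1.56 ± 0.17 on the log2 scale in TA (edgeR adjusted p = 2.5e-05), the largest rise among genes of the list with at least 5 CPM, and by 0.65 ± 0.18 in TD (edgeR adjusted p = 0.0114). Serpina3n, a secreted serine protease inhibitor and the most abundant gene of the list, had 4130 ± 296 CPM in WT, 5985 ± 634 in TA and 6905 ± 603 in TD, and it rose in both mutants (edgeR adjusted p = 0.00249 in TA and 0.00015 in TD). Wfdc17, a small whey acidic protein made by macrophages, rose in TD by 1.24 ± 0.26 (edgeR adjusted p = 0.00249), from 8.62 ± 2.57 to 20.5 ± 3.96 CPM, and had 8.36 ± 3.67 CPM in TA.

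Some relatives went down or took opposite courses in the mutants. A2m, the broad protease inhibitor α2-macroglobulin, had 112 ± 17.4 CPM in WT and fell in TA by 0.82 on the log2 scale, to 63.4 ± 14.6 (edgeR adjusted p = 0.0015). In TD it rose by 0.48, to 156 ± 19.9 CPM (edgeR adjusted p = 0.0197), a call lost without WT replicate 1 (0.0735) or TD replicate 4 (0.0736). Itih4, an acute phase plasma protein, fell in TD by 1.65 on the log2 scale, from 23.9 ± 10.8 to 7.63 ± 0.962 CPM (edgeR adjusted p = 0.0015). The metallothioneins Mt1 and Mt2, which bind zinc and copper, fell in TD by 0.57 (edgeR adjusted p = 0.00504) and by 0.52 (edgeR adjusted p = 0.00668). Ptx3, a long pentraxin, was called in neither mutant against WT. Steap4, a metalloreductase, had 982 ± 30.6 CPM in WT and 1117 ± 41.1 in TD, and its edgeR adjusted p of 0.0492 rose to 0.0615 to 0.138 without any of 9 libraries. Wfdc21, a further whey acidic protein singled out after its values were seen, shared the course of the Orm genes, with 60.8 ± 5.45 CPM in WT, 114 ± 10.1 in TA and 61.4 ± 6.32 in TD. It rose in TA by 0.91 ± 0.09 (edgeR adjusted p = 6.16e-06) and lay lower in TD than in TA by −0.90 ± 0.09 (edgeR adjusted p = 1.01e-05).

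Complement genes other than C3 were mostly higher in TD and often in TA. Of 33 listed, 26 were tested, and in TD against WT 15 rose and 3 fell, with a median log2 fold change of 0.73. In TA against WT 11 rose and none fell, with a median of 0.39, and in TD against TA 6 rose and none fell. The shares called were 69.2%, 42.3% and 23.1%, beside 29.2%, 11.1% and 16.7% of all genes. The count of 6 was 2 without any of TA replicates 1 and 2 and TD replicates 2, 3 and 4, 10 without WT replicate 2 and 12 without TA replicate 3. The proteases that start the classical pathway were among them, with C1s1 at 372 ± 30.5 CPM in WT, 562 ± 108 in TA and 735 ± 50.9 in TD (SD, n = 4), and C1ra at 170 ± 13.5, 248 ± 52.9 and 325 ± 23.3. C1s1 rose in TD by 0.98 ± 0.12 (edgeR adjusted p = 8.02e-05) and in TA by 0.60 ± 0.12 (edgeR adjusted p = 0.00302). C4b, which with C2 forms the classical convertase that cleaves C3, rose by 0.78 in TD (edgeR adjusted p = 0.000176) and by 0.76 in TA (edgeR adjusted p = 0.000248). Masp1, a protease of the lectin pathway, rose by 1.28 ± 0.19 in TA (edgeR adjusted p = 0.000373), the largest rise there among genes of the list with at least 5 CPM.

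C7, a part of the membrane attack complex, had the largest rise of the list in TD, by 1.51 ± 0.13 (edgeR adjusted p = 7.67e-06), from 27.5 ± 2.92 to 78.4 ± 10.6 CPM. Serping1, the inhibitor of C1r and C1s, rose by 1.18 ± 0.13 in TD (edgeR adjusted p = 5.87e-05) and by 0.58 ± 0.13 in TA (edgeR adjusted p = 0.00853). Vtn, vitronectin, which blocks the terminal complex, rose in TD by 1.5 ± 0.21 (edgeR adjusted p = 0.000176) and had 3.79 ± 0.882 CPM in WT. The genes that fell in TD were Cfd, C8g and C1rl, the last with an edgeR adjusted p of 0.0298 and no call without any of 6 libraries (up to 0.0766). Cfd, the adipocyte protease adipsin and also 1 of the adipocyte markers, went from 1272 ± 211 to 800 ± 119 CPM (log2 fold change −0.67 ± 0.15, edgeR adjusted p = 0.00366). Cfb, the convertase subunit of the alternative pathway, was read after its values were seen. It rose by 1.11 ± 0.13 in TD (edgeR adjusted p = 8.18e-05) and by 0.93 ± 0.13 in TA (edgeR adjusted p = 0.000249). The mean progenitor sum stood in the same order as C3, WT, TA and TD, and was also lowest among TA libraries in replicate 2. Its part in the complement values was not tested.

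**Figure D5:**
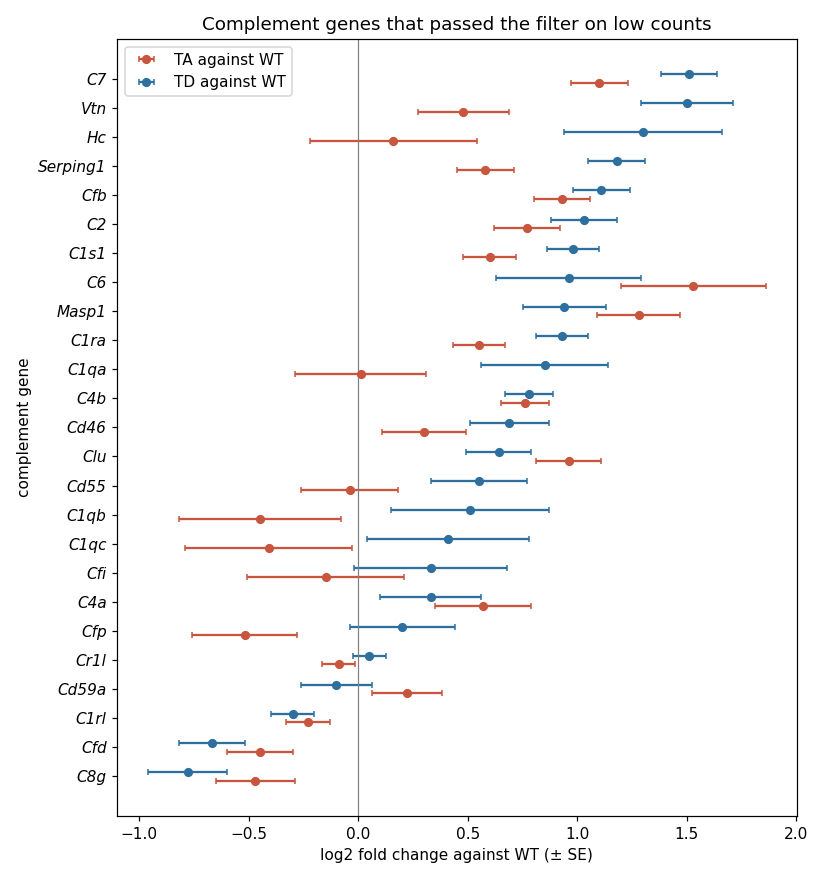
Log2 fold changes against WT (horizontal axis, points) with their SE (whiskers) for 25 of the 26 tested complement genes, in TA and in TD, sorted by the value in TD. Most genes lie above 0 in TD, up to C7 at 1.51, and Cfd and C8g lie below 0 in both.

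Of 34 ligands, receptors and signal proteins that drive the acute phase response, 29 were tested. In TD against WT 16 rose and 1 fell (median log2 fold change 0.44), in TA against WT 4 rose and 1 fell (median 0.06), and in TD against TA 8 rose. The shares called in these 3 comparisons were 58.6%, 17.2% and 27.6%, beside 29.2%, 11.1% and 16.7% of all genes. The rises in TD against WT numbered 10 without WT replicate 1 and 9 without TD replicate 4, and those in TA 2 without WT replicate 1. Socs3, the feedback inhibitor induced by STAT3, had 19.7 ± 2.66 CPM in WT, 19.5 ± 4.9 in TA and 36.1 ± 4.28 in TD (SD, n = 4), and rose in TD against WT by 0.87 ± 0.15 (edgeR adjusted p = 0.000699) and against TA by 0.89 ± 0.16 (edgeR adjusted p = 0.00123). Osmr, the receptor chain for oncostatin M, rose in TD by 0.67 ± 0.12 (edgeR adjusted p = 0.000768), and Il1r1, the interleukin-1 receptor, by 0.96 ± 0.15 (edgeR adjusted p = 0.00035). Cntfr, the receptor chain for ciliary neurotrophic factor, had the largest rise in both mutants among genes of the list with at least 5 CPM, by 1.13 in TD (edgeR adjusted p = 0.000222) and by 0.95 in TA (edgeR adjusted p = 0.00141). Il17rc, a receptor chain for interleukin-17, fell in both, by 0.50 (edgeR adjusted p = 0.00626) and by 0.52 (edgeR adjusted p = 0.0115). Il6st, the shared signal chain gp130, and Jak1, a kinase bound to it, passed in TD (edgeR adjusted p = 0.04 and 0.0261) and lost the call without any of 6 and 4 of the libraries (up to 0.151 and 0.093). Tnfrsf1a was not called in either mutant.

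The ligands themselves were scarce. Il6, looked at after its values were seen, had 0.467, 0.943, 1.09 and 0.767 CPM in WT, 1.52, 0.861, 1.56 and 1 in TA and 1.53, 2.75, 2.45 and 2.46 in TD. It rose in TD against WT by 1.48 ± 0.32 (edgeR adjusted p = 0.00258), without overlap. Lif, a relative of interleukin-6 singled out in the same way, rose by 1.09 ± 0.21 (edgeR adjusted p = 0.00107), to 7.1 to 11.1 CPM. Il1b had at most 3 counts in a library, and Il1a, Osm, Il11 and Il17a also did not pass the filter.

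Of 27 transcription factors of this response 24 were tested, and 7 rose and 3 fell in TD against WT, a share of calls of 41.7% beside 29.2% for all genes. The rises numbered 3 or 4 without any of WT replicates 1, 3 and 4 and TD replicates 2 and 4. In TA against WT only Nr1h4, a bile acid receptor, was called, and it rose by 1.40 ± 0.29 (edgeR adjusted p = 0.00439), from 0.765 ± 0.316 to 2.03 ± 0.179 CPM (SD, n = 4). Cebpd, a C/EBP factor induced in the acute phase, rose in TD by 0.36 ± 0.086 (edgeR adjusted p = 0.00537), and Cebpa, the C/EBP factor of mature adipocytes, fell by 0.36 ± 0.096 (edgeR adjusted p = 0.0106). Stat5a fell in TD by 0.54 (edgeR adjusted p = 0.000718). Nfkbie, an inhibitor of NF-κB, had 6.99 ± 1.36 CPM in WT and 9.61 ± 1.09 in TD (edgeR adjusted p = 0.0423), and this call was lost without any of 7 libraries (0.0506 to 0.134). Stat3, at 284 ± 2.94 CPM in WT and 308 ± 18.7 in TD, was not called (edgeR adjusted p = 0.198, but 0.039 with library totals as the scale), nor was the glucocorticoid receptor Nr3c1.

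Receptors and partners of the members' proteins were the last list, with 21 of 28 tested. In TD against WT 5 rose and 2 fell, and in TA against WT 1 rose and 2 fell (1 to 7 fell when a library was left out). These are 33.3% and 14.3% of the list, near the 29.2% and 11.1% of all genes. In TD against TA 7 rose and 2 fell, 42.9% beside 16.7%, the 7 becoming 4 without TA replicate 2 or TD replicate 4 and 12 without TA replicate 3. Cd163, the macrophage receptor that takes up haptoglobin bound to haemoglobin, had 4.77 ± 2.29 CPM in WT, 9.23 ± 3.76 in TA and 26.1 ± 4.74 in TD (SD, n = 4), and rose in TD against WT by 2.44 ± 0.31 (edgeR adjusted p = 9.24e-05). It belongs to the macrophage markers, of which 2 of 16 tested rose in TD against WT, 12.5% beside 15.1% of all genes. That count was 7 without WT replicate 2, 4 without TA replicate 2 or 3, and 1 without any of WT replicates 1, 3 and 4 and TD replicates 1, 2 and 3. In TD against TA 5 rose (1 to 15 when a library was left out), 31.2% beside 7.33%. In TA against WT none was called (up to 8 lower when a library was left out). The macrophage sum was 313 to 944 CPM in WT, 162 to 686 in TA and 747 to 1011 in TD. Hmox1, haem oxygenase, which degrades the haem that Cd163 delivers, fell in both mutants, by 1.16 on the log2 scale in TA (edgeR adjusted p = 0.00011) and by 0.54 in TD (edgeR adjusted p = 0.0135, and 0.0501 without TD replicate 4). Scarb1, the receptor for high density lipoprotein, rose in TA by 0.43 ± 0.094 (edgeR adjusted p = 0.00728), whereas Cd36, a scavenger receptor and adipocyte marker, fell in TD by 0.47 ± 0.096 (edgeR adjusted p = 0.002). Egfr rose in TD by 0.66 (edgeR adjusted p = 0.000873) and Igf1r by 0.46 (edgeR adjusted p = 0.0113). Mmp9, the gelatinase that binds LCN2 in humans, was higher in TD than in TA by 1.63 ± 0.52 (edgeR adjusted p = 0.0396), a call that 7 of the 12 fits with a library left out did not keep (up to 0.137), and it was called in neither mutant against WT. Fpr2, a receptor of cathelicidin and serum amyloid A that is named beyond the rule given below, had 0.591 to 1.16 CPM on average in the 3 genotypes. It was not called. For interferon-induced genes, read because Ubd resembled Camp, 16 of 30 rose in TA and 10 in TD, each against WT. These are 53.3% and 33.3% of the list, beside 6.72% and 15.1% of all genes called higher (11.1% and 29.2% in either direction). Those counts were 9 and 8 for TA without WT replicates 2 and 3, and 3 for TD without TD replicate 3 or 4. The list summed to 812 to 1291 CPM in WT, 1472 to 2031 in TA and 985 to 1989 in TD.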

How the data were processed

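RNA of 12 libraries, 4 each of WT, TA and TD, was analysed from read counts per gene that the authors deposited without normalization. Per the labels' processing notes, which give no order of steps, bcl2fastq 2.17.1.14, cutadapt 1.9.1, HISAT2 2.0.1, HTSeq 0.6.1 and GRCm38 were used. The strand setting is not given in the sources used here. Groups and replicate numbers came from the sample labels. The labels give no batch, and no batch was modelled.

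Counts were analysed in R 4.3.3 with edgeR 4.0.16. Of 55573 genes, edgeR's filterByExpr (count at least 10, total at least 15) kept 15117. TMM factors were 0.957 to 1.04, and the biological coefficient of variation was 12.9%. A quasi-likelihood model of genotype was fitted to all 12 libraries, with two-sided tests, Benjamini-Hochberg adjustment over the 15117 genes and a threshold of 0.05. The standard error of a log2 fold change was derived from its F statistic. CPM per kilobase used the union of exons of protein-coding transcripts in GENCODE M21, in which 55394 of 55573 identifiers (99.7%) were found. Simulated data served to test these steps for TD against WT. Of 15117 genes simulated, 200 were changed, and 14934 passed the filter and were tested. Among the genes tested, 80.8% of those changed by 1 and 94% of those changed by 2 on the log2 scale were called. Of the calls 2.79% were false. The data themselves gave 4418 calls in this comparison, so far fewer genes were changed in the simulation. Replicate libraries differed by more than sampling noise in all 18 pairs.

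The members and the gene lists were chosen with earlier results of these data known. Named in the text are the 9 members, in each pathway list the largest called rise and fall per comparison (mean of 5 CPM or more on the higher side) and up to 5 more of the highest mean CPM, the genes within 100 kb of Camp, Saa3 and Orm1, and the 5 genes most like Camp (root mean square difference of centred log2 CPM, prior count 2). Genes named beyond this rule are marked as such, are cell-type markers, or are the genes behind a count of 5 or fewer. Some genes of these lists that the rule names are counted but not reported here by name. Alternatives were DESeq2 1.42.0, limma 3.58.1 (voom), other scalings and filters, fits of 2 genotypes, a replicate block and leaving out each library. Promoter sequences came from RefSeq.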

Additional observations from a re-analysis of the deposited data

Results flagged for a closer look

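Slpi in TA replicate 3 had 1.34 CPM, whereas the other 3 TA libraries had 0.445 to 0.585, and its distance from them was large for the spread of 4 values by Dixon's criterion. It was the only flag among 27 groups of 4 libraries, and chance flags about 1 in 20. The same library had the highest progenitor sum of the TA libraries. The cause was not tested.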

How the results depend on the processing

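Under 20 alternatives no called fold change of a member changed sign. Of the 9 members, 5 or 6 were called in TD against WT in every alternative. Of the 8 other than Camp, 2 to 4 were called for TD and TA. Camp and Slpi did not pass the filter of 10 counts per library. Leaving out each library in turn gave 1422 to 3526 genes called in TD against TA. Over the same fits, relatives called higher in TD against TA numbered 2 to 6, complement genes 2 to 12, and ligands and receptors 9 to 17 in TD and 2 to 6 in TA, each against WT. Without a filter on low counts 12 complement genes were higher in TD against TA, and with library totals as the scale 7 relatives were. That scale also moved the share of calls that were higher from 51.5% to 64.6% in TD against WT and from 43.9% to 64.7% in TD against TA, where the median over all genes shifted from 0.023 to 0.10 on the log2 scale. In TD against TA the share was 54.3% without a filter. The cause was not tested where a count changed. Camp, Slpi, Saa1 and Saa2 had few counts per library, which limits the precision of their fold changes.

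With replicate number as a block, 4246 genes were called between TD and WT, 1560 between TA and WT and 2488 between TD and TA. The labels do not say what a number shares. Deviations of libraries with the same number correlated from −0.237 to 0.196, and in 5 of 24 comparisons a library was nearest to its own number, so the numbers were not taken as pairs.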
